A study of Mus musculus with 12 samples.

Results

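The genes described here code for milk proteins and for proteins that mammary luminal cells secrete, and they were chosen by name: the caseins Csn1s1, Csn1s2a, Csn2 and Csn3, the whey proteins Wap and Lalba, the milk mucin Glycam1, the defence proteins Ltf and Lcn2, and the enzyme Xdh. All 10 had a row among the 23406 genes of the deposited expression table, and 5 of them (Csn1s1, Csn3, Ltf, Lcn2 and Xdh) passed the filter for testing, 0.5 CPM or more (CPM are read counts scaled to library size) as the mean of the 12 libraries, as did 13961 genes in all. Total RNA was measured in passage 2 mammospheres, spheres that mammary cells form when grown in suspension. They were grown from C57BL/6J mice, either wild type (WT) or knock-out for p66Shc (p66-/-, here KO), at an age of 2 or 12 months, with 3 libraries for each of the 4 combinations. The isoform p66Shc is made from Shc1, an adaptor gene, and is known for its part in oxidative stress and ageing. The labels name no other allele and no treatment. The series text speaks of 3 young and 3 aged mice, and the labels do not tie a library to a mouse, so the p-values measure only how these libraries vary, which may be technical. Where 4 group values are listed in a row, their order is WT at 2 months, WT at 12 months, KO at 2 months, KO at 12 months.

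Milk is made by luminal alveolar cells of the mammary gland. Prolactin binds its receptor, the kinase Jak2 phosphorylates Stat5, and Stat5 acts with the factor Elf5 and with glucocorticoid receptor to switch on casein and whey protein genes in pregnancy and lactation. Caseins are assembled into micelles that carry calcium and amino acids, with kappa-casein (Csn3) at the micelle surface. Lalba is the subunit that makes galactosyltransferase synthesise lactose, Wap is the main whey protein of rodent milk, and Xdh lines the milk fat globule together with butyrophilin. Ltf (lactotransferrin) and Lcn2 (lipocalin 2) deny iron to bacteria, the former by binding iron itself and the latter by binding bacterial siderophores. Both are also found in neutrophil granules, and Lcn2 is induced by inflammatory signals.

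The stretch just before the start site was read for the 8 of 10 genes that have an entry in the RefSeq promoter table (GRCm38.p6, the same assembly as mm10). Csn3 and Xdh have no entry. Promoters of 2 caseins and of both defence genes are shown. Each of these windows holds a match to a motif, as does that of Glycam1, which is not shown. Each line gives the 250 bases before the start site on the gene's own strand, 5′ to 3′, with capitals marking a match to a Stat5 motif (TTCNNNGAA) or a C/EBP motif (TTGCNNAA) on either strand. The windows are chr5:87665958-87666207 on the plus strand for Csn1s1, chr5:87699426-87699675 on the minus strand for Csn2, chr9:111019042-111019291 on the plus strand for Ltf and chr2:32387740-32387989 on the minus strand for Lcn2.
Csn1s1: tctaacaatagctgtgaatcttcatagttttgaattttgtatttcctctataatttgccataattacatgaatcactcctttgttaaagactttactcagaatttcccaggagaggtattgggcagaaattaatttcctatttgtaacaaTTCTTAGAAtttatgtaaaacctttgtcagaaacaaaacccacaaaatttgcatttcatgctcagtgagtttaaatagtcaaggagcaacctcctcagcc
Csn2: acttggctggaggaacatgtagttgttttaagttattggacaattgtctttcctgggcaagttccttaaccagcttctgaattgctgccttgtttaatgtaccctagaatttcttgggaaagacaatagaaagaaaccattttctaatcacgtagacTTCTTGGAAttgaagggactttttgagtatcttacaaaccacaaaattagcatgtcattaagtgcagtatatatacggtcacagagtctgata
Ltf: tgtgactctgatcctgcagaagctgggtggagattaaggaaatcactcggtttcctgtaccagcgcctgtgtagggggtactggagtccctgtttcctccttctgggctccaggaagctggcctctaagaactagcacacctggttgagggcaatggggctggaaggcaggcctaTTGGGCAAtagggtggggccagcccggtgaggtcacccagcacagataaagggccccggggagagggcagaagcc
Lcn2: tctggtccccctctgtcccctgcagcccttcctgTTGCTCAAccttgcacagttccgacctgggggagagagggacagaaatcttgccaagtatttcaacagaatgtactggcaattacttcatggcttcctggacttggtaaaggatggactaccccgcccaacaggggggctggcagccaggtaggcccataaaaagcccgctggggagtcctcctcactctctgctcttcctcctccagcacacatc

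The Stat5 motif was found once in Csn1s1, 100 to 92 bases before the start site, once in Csn2, 93 to 85 bases before it, and once in Glycam1, 145 to 137 bases before it. The C/EBP motif was found once in Ltf, 75 to 68 bases before the start site, and once in Lcn2, 216 to 209 bases before it. An NF-kB motif (GGG, any 2 bases, then TTTCC) was not found in any of the 8 windows, and none of the 3 motifs was found in Csn1s2a, Wap or Lalba. Among 32851 mouse promoter windows of the same 250 bases, 7.02% held the Stat5 motif, 9.56% the C/EBP motif and 1.41% the NF-kB motif. A match is a string of letters and not a measured binding site. A window without a match may still hold a site that differs from these strings, and sites further away were not searched.

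Library depth ran from 31845169 to 109079737 reads, so 3 reads, taken as the floor of detection, stood for 0.029 to 0.0859 CPM. Shc1, counted over all its isoforms, lay at 296 ± 25.3, 211 ± 8.44, 208 ± 0.329 and 170 ± 7.6 CPM over the 4 groups (SD, n = 3 each), and a count over all isoforms checks the genotype labels only in part. The summed level of 12 luminal epithelial markers (keratins, claudins, Epcam and others) was 4407 to 4524 CPM in 12-month WT and 374 to 581 CPM in the other 9 libraries. Basal or myoepithelial markers, 9 genes, summed to 64.6 to 76.5, 236 to 247, 71.9 to 74.1 and 97.5 to 101 CPM over the 4 groups. All 9 rose with age in WT, where 22.3% of all genes rose. At 12 months 7 of them were lower and 0 higher in KO, where 38.9% and 31.3% of all genes were. Markers of other cell types were also present. The sum of 6 fibroblast markers was 10168 to 11039, 6574 to 6978, 9639 to 10656 and 8330 to 9460 CPM. For 6 macrophage markers it was 1104 to 1386, 805 to 879, 885 to 988 and 338 to 665 CPM. For 5 skeletal muscle markers it was 848 to 992, 164 to 184, 236 to 291 and 788 to 1493 CPM. Such sums do not give the share of each cell type. Replicate 1 of 2-month WT and replicate 3 of 12-month KO, the deepest library, stood apart from their groups. Their chi-square per gene against the other replicates was 67.9 and 45.4, and 36.1 and 34.9, while the remaining pairs of those groups gave 10.6 and 14.3. Without either library the same number of the 5 genes was called in each comparison, except that Csn1s1 also passed as lower in KO at 2 months without replicate 3 of 12-month KO (limma adjusted p = 0.0329). Without that library the log2 fold change of Csn3 with age in KO was -4.85, and without replicate 1 of 2-month WT that in WT was 1.84. The deposited columns were not all scaled in 1 run, so each level across groups carries a difference in scale, of at most 0.0884 on the log2 scale between group means against a single run over all 12 libraries. In bulk RNA, fewer cells of a type and less RNA per cell cannot be told apart.

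Of the 10 genes, 5 carried nearly all the reads. Divided by transcript length, the level in 12-month WT was 1412 CPM per kb for Lcn2, 187 for Ltf, 102 for Xdh, 75.3 for Csn3 and 4.8 for Csn1s1. In 12-month KO the same scale gave 285 CPM per kb for Lcn2, 146 for Xdh, 19 for Ltf, 0.504 for Csn1s1 and 0.365 for Csn3. Lcn2 was thus the highest of them at 12 months in both genotypes, and in 12-month KO the caseins Csn3 and Csn1s1 were both under 1 CPM per kb.

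**Figure D1:**
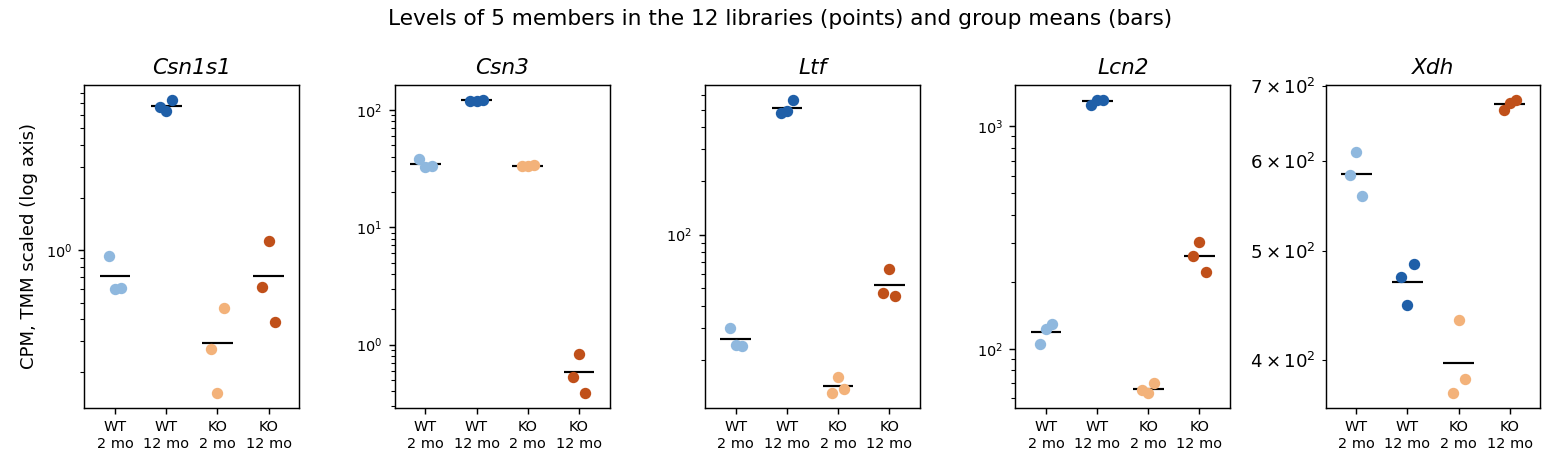
Level of each tested gene in every library (CPM, log axis, each panel with its own scale), with 1 point per library, 3 libraries in each group and a bar at the group mean. Csn3 sat between 0.387 and 0.827 CPM in 12-month KO and at 32.9 CPM or above in the other 9 libraries, while Xdh stayed between 374 and 680 CPM throughout.

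Csn3 (kappa-casein, chr5:87925632-87932264, plus strand, mm10) gave the widest range of the caseins. In WT its level was 37.9, 32.9 and 33.3 CPM at 2 months and 119, 119 and 122 CPM at 12 months. In KO it was 33.0, 33.1 and 33.7 CPM at 2 months and 0.535, 0.827 and 0.387 CPM at 12 months. The 2-month groups overlapped, all 12-month WT libraries lay above them, and all 12-month KO libraries lay far below them. The 12-month KO libraries held only 21 to 40 Csn3 reads each, above the floor of 3 reads.

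Between 2 and 12 months Csn3 rose 3.46-fold in WT (log2 fold change 1.78 ± 0.11 SE, limma adjusted p = 1.7e-08) and fell 57.1-fold in KO (log2 fold change -4.98 ± 0.11, limma adjusted p = 2.43e-12). At 12 months it was 206-fold lower in KO than in WT (log2 fold change -6.82 ± 0.11, limma adjusted p = 2.98e-13), the largest fall of the 13961 genes tested in that comparison. With age in KO, 1 gene fell further, Agtr2, an angiotensin receptor, from 312 to 3.33 CPM. At 2 months the genotypes gave 34.7 ± 2.81 and 33.3 ± 0.404 CPM (SD, n = 3 each), a log2 difference of -0.06 ± 0.11 (limma adjusted p = 0.803), which turned to 0.03 when scaling factors were computed over all 12 libraries. Log2 fold changes are on the log2(CPM + 0.5) scale, which understates changes of low genes: for age in KO, edgeR on the recovered reads gave -5.95, and at 12 months it gave -7.8.

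The table lists 10 genes whose deposited span covers Csn3. Of these, 9 are listed over more than 90 Mb of the chromosome and had 1 read in all. The other, 1700066N21Rik (chr5:87908587-87979351, minus strand), had 0 reads in every library. Whether counting used strand is not given in the sources used here, so reads from that strand could not be separated from Csn3 by the table alone.

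Csn1s1 (alpha-S1-casein, chr5:87666223-87682574, plus strand) was a low gene in all groups. Its level in WT was 0.932, 0.595 and 0.610 CPM at 2 months and 6.67, 6.32 and 7.33 CPM at 12 months. In KO it was 0.270, 0.151 and 0.463 CPM at 2 months and 0.612, 1.13 and 0.387 CPM at 12 months. The 3 libraries of 12-month WT stood above all 9 others, and the 2 ages of KO overlapped. Over the 4 groups its reads numbered 96, 939, 35 and 112.

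With age Csn1s1 rose 9.51-fold in WT (log2 fold change 2.59 ± 0.21, limma adjusted p = 1.39e-07). In KO it rose 2.41-fold (0.58 ± 0.21, limma adjusted p = 0.0237), a call that was lost on leaving out replicate 1 or replicate 2 of 2-month KO (adjusted p = 0.058 and 0.102) or replicate 2 of 12-month KO (adjusted p = 0.12). At 12 months it was 9.53-fold lower in KO than in WT (-2.63 ± 0.21, limma adjusted p = 9.55e-08). In edgeR the log2 fold changes of this low gene were larger, 3.36 for age in WT, 1.19 for age in KO and -3.35 at 12 months. At 2 months the KO level was 0.295 ± 0.157 and the WT level 0.712 ± 0.19 CPM (SD, n = 3 each), and limma gave an adjusted p of 0.06. That comparison passed the threshold with a pseudocount of 0.1 (adjusted p = 0.0392) and in DESeq2 on the recovered reads (adjusted p = 0.0328), and did not in edgeR (adjusted p = 0.128). The mean level over the 9 libraries other than 12-month WT was 0.573 CPM, just above the 0.5 CPM filter.

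The other caseins were at or near 0. Csn2 (beta-casein, chr5:87692623-87699421, minus strand), a major casein of milk, had 4 reads in all, 2 in each of 2 libraries of 12-month WT. Csn1s2a (chr5:87774566-87788797, plus strand), an alpha-S2-type casein, had 8 reads, all in the 3 libraries of 12-month WT, at 0.032, 0.072 and 0.086 CPM. A count of 0 over a group allows up to 0.0219 CPM for WT at 2 months, 0.0246 for KO at 2 months and 0.0162 for KO at 12 months (3 reads over the group). Without the filter, limma gave Csn1s2a an adjusted p of 0.00139 for age in WT, DESeq2 gave 0.23, and the exact two-sided permutation p was 0.1, the smallest that 3 against 3 libraries allow.

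The caseins lie in 1 cluster on chromosome 5, with Csn1s1, Csn2 and Csn1s2a starting, each on its own strand, at -259.4, -226.2 and -151.1 kb from the start of Csn3. From 500 kb before Csn1s1 to 700 kb after Csn3 the deposited table listed 28 genes, of which 13 had no read in any library and 3 were tested, namely Csn1s1, Csn3 and Utp3. Utp3, a nucleolar protein gene 628.8 kb from Csn3, lay at 59.1, 51.7, 53.8 and 45.3 CPM over the 4 groups. It fell slightly with age in both genotypes (log2 fold change -0.19 in WT and -0.25 in KO). Most neighbours of Csn3 were thus too low to compare with it, and the change of Utp3 was small beside that of Csn3.

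**Figure D2:**
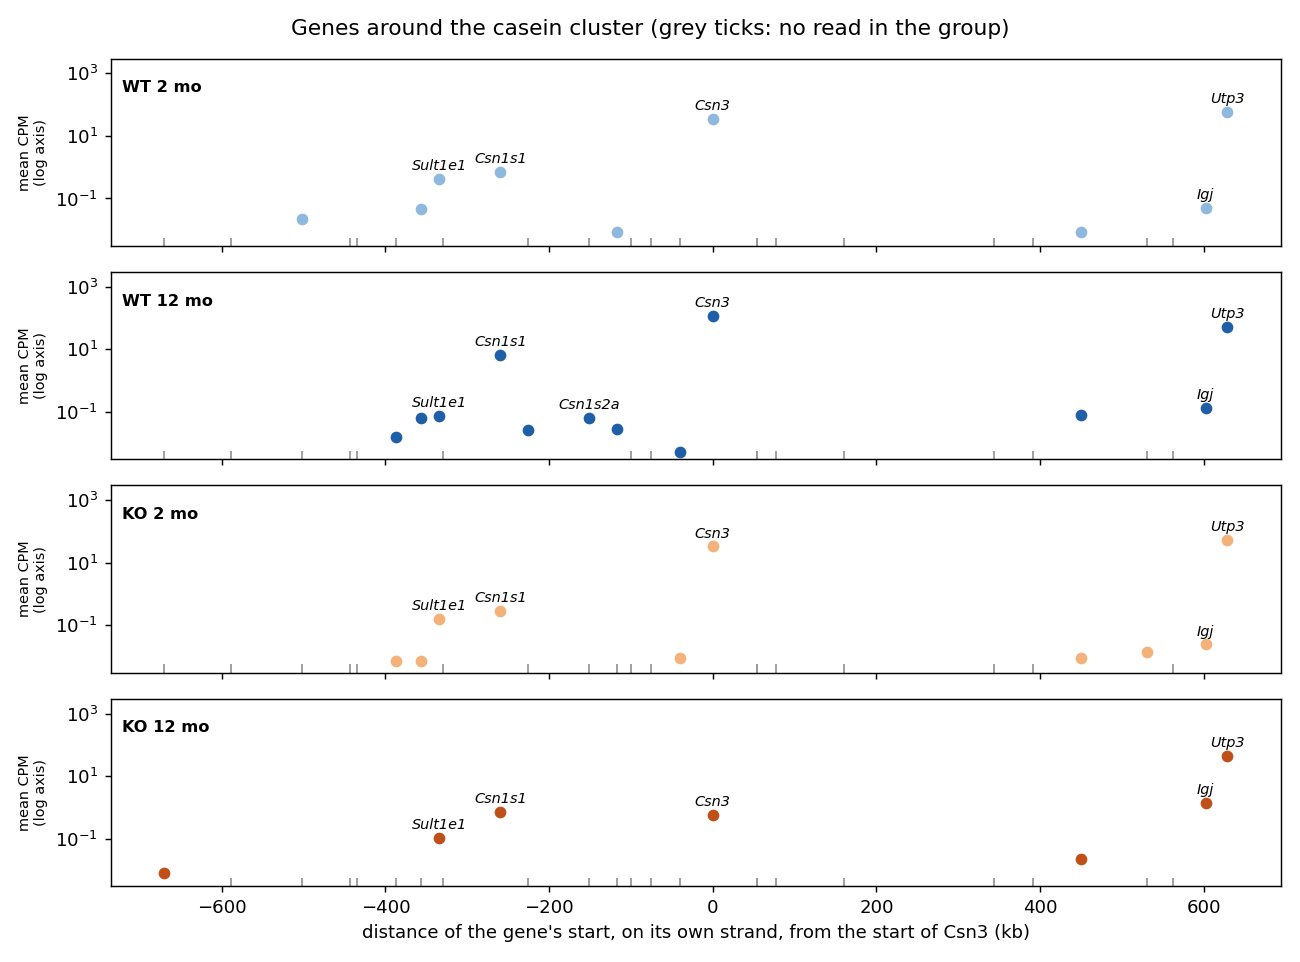
Mean level per group (CPM, log axis) of the genes around the casein cluster against the distance of each gene's start from the start of Csn3 in kb, 1 panel per group, with grey ticks for genes without a read in that group. Csn3 stood at 34.7, 120, 33.3 and 0.583 CPM from the top panel to the bottom one, where Utp3 was at 45.3 CPM.

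The whey proteins and Glycam1 were close to the limit of detection. Wap (chr11:6635482-6638649, minus strand) had 0 reads in all 12 libraries. Lalba (chr15:98480399-98482683, minus strand) and Glycam1 (chr15:103562761-103565078, minus strand) had 5 reads each, 1 in 12-month WT and 4 in 12-month KO. Neither had a read at 2 months in either genotype. Readings this low allow no fold change, and none of the 3 was tested.

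The defence proteins were highest in 12-month WT. Ltf (chr9:111019291-111042766, plus strand) in WT was 29.9, 24.3 and 24 CPM at 2 months and 481, 488 and 569 CPM at 12 months. In KO it was 13.0, 16.0 and 13.8 CPM at 2 months and 47.2, 64.1 and 45.5 CPM at 12 months. The groups did not overlap, and their order from high to low was 12-month WT, 12-month KO, 2-month WT and 2-month KO.

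Lcn2 (chr2:32384636-32387739, minus strand) in WT was 105, 122 and 129 CPM at 2 months and 1246, 1313 and 1316 CPM at 12 months. In KO it was 65.3, 63.2 and 70.1 CPM at 2 months and 260, 302 and 220 CPM at 12 months. Its groups had the same order as those of Ltf, also without overlap.

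Both genes rose with age in both genotypes, and the fold was smaller in KO. Ltf rose 19.7-fold in WT and 3.67-fold in KO (log2 fold change 1.83 ± 0.13, limma adjusted p = 4.33e-08). Lcn2 rose 10.9-fold in WT and 3.94-fold in KO (1.96 ± 0.1, limma adjusted p = 1.97e-09). The difference between the age effects, KO minus WT, was -2.45 ± 0.18 for Ltf (limma adjusted p = 1.1e-07) and -1.48 ± 0.14 for Lcn2 (limma adjusted p = 1.1e-06).

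KO was already lower at 2 months, by 1.83-fold for Ltf (log2 fold change -0.85 ± 0.13, limma adjusted p = 0.000627) and 1.79-fold for Lcn2 (-0.84 ± 0.1, limma adjusted p = 9.83e-05). At 12 months KO was lower by 9.82-fold for Ltf (-3.3 ± 0.13, limma adjusted p = 1.33e-10) and 4.95-fold for Lcn2 (-2.32 ± 0.1, limma adjusted p = 2.83e-10). The genotype gap was thus larger at 12 months than at 2 months for both, by the interaction values given above.

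Neutrophils carry both proteins, so their markers stand beside these values. Of 10 neutrophil markers 9 had a row, and 8 of these had a mean under 0.5 CPM. Their summed level was 13.2 to 13.8, 19.5 to 25, 8.76 to 11 and 37.8 to 46.3 CPM over the 4 groups. S100a8 made up most of each sum, with means of 12.7, 21.1, 9.19 and 39.3 CPM in that order. S100a9 was at 0.0507, 0.0367, 0.0487 and 1.33 CPM. The granule genes Ngp, Camp, Mpo and Elane had group means of 0.378 CPM or less. The part of neutrophils in the Ltf and Lcn2 results was not tested.

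Xdh (xanthine dehydrogenase, chr17:73883907-73950182, minus strand) was high in every group and did not share the order of the other genes. In WT it was 583, 612 and 559 CPM at 2 months and 474, 448 and 487 CPM at 12 months. In KO it was 374, 434 and 385 CPM at 2 months and 666, 675 and 680 CPM at 12 months. The order from high to low was 12-month KO, 2-month WT, 12-month WT and 2-month KO, without overlap between groups.

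With age Xdh fell 1.25-fold in WT (log2 fold change -0.32 ± 0.06, limma adjusted p = 0.00056) and rose 1.69-fold in KO (0.76 ± 0.06, limma adjusted p = 1.42e-07). KO was 1.47-fold lower than WT at 2 months (-0.56 ± 0.06, limma adjusted p = 5.38e-05) and 1.44-fold higher at 12 months (0.52 ± 0.06, limma adjusted p = 5.02e-06). The age effects differed by 1.08 ± 0.09 on the log2 scale (limma adjusted p = 2.11e-07). Endothelial cells and adipocytes also express Xdh. The summed level of 6 endothelial markers was 110 to 120, 117 to 127, 70.2 to 74.6 and 268 to 285 CPM over the 4 groups. All 6 were higher in KO than in WT at 12 months, where 31.3% of all genes were higher. At 2 months all 6 were lower in KO, where 14.2% of all genes were lower. The sum of 5 adipocyte markers was 169 to 182, 128 to 153, 161 to 172 and 303 to 312 CPM in the same order, nearly all of it Fabp4. Adipoq was at 0.995, 0.368, 0.545 and 0.182 CPM. At 12 months Fabp4 was higher in KO (log2 fold change 1.15) and Adipoq lower (-0.338, limma adjusted p = 0.0349). The part of these cell types in the Xdh result was not tested.

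**Figure D3:**
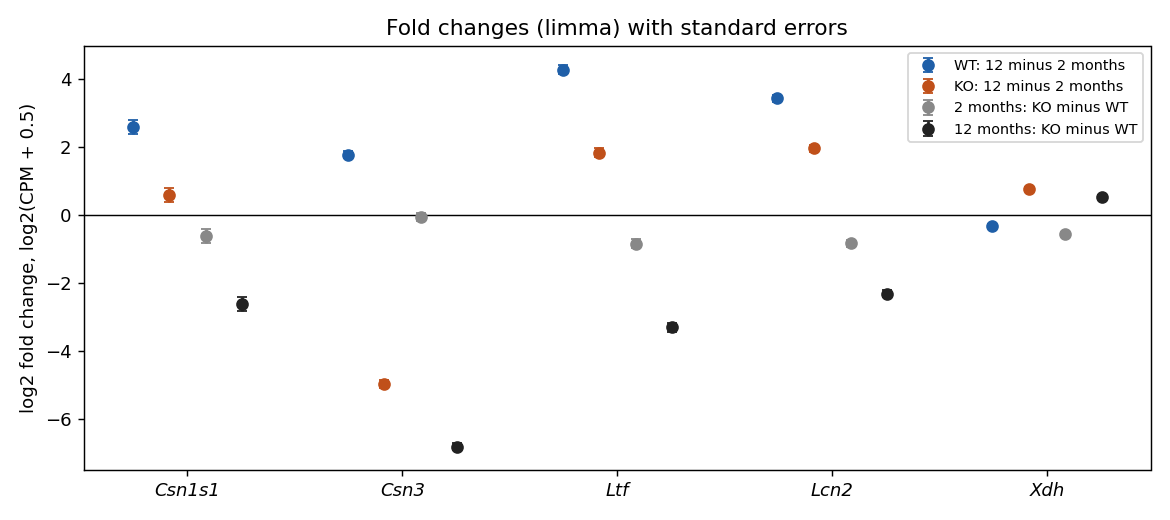
Log2 fold change on the log2(CPM + 0.5) scale for the 5 tested genes in 4 comparisons, with bars for the standard error from limma. Csn3 fell by 4.98 with age in KO and rose by 1.78 in WT, and Xdh changed in the opposite direction to Ltf and Lcn2 with age in WT.

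Read against all genes, the counts were as follows. They are a description and no test of the set, since the genes were chosen with earlier results of these data known. With age in WT, 4 of the 5 tested genes rose and Xdh fell, where 22.3% of 13961 genes rose and 35.6% fell. With age in KO, Csn1s1, Ltf, Lcn2 and Xdh rose and Csn3 fell, where 32.9% rose and 34.2% fell. At 2 months, none was higher in KO and Ltf, Lcn2 and Xdh were lower, where 1.86% of genes were higher and 14.2% lower. At 12 months, Xdh was higher in KO and the other 4 were lower, where 31.3% were higher and 38.9% lower. In the difference between the age effects, Xdh was higher in KO and the other 4 were lower, where 31.4% were higher and 26.2% lower.

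The median log2 fold change of the 5 was 2.59 for age in WT against -0.08 over all genes, and 0.76 for age in KO against -0.02. It was -0.62 at 2 months against -0.09, and -2.63 at 12 months against -0.07. Exact two-sided permutation p-values over libraries were 0.1, the smallest possible, for the tested genes in all 4 two-group comparisons except Csn1s1 with age in KO (0.2) and Csn3 at 2 months (0.7). Scaling mattered for the split of all calls: the share of called genes that were rises was 38.6% for age in WT and 11.5% for genotype at 2 months, against 46.4% and 29.2% with factors computed over all 12 libraries.

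Set against the luminal markers of the same library, the genes separated into different patterns. The mean log2 level of the 12 luminal markers was 4.39, 7.71, 4.61 and 4.80 over the 4 groups. All 12 rose with age in WT, where 22.3% of all genes rose. At 12 months all 12 were lower in KO, where 38.9% of all genes were lower. Csn1s1 minus this mean was -4.12 ± 0.38, -4.85 ± 0.11, -4.96 ± 0.26 and -4.57 ± 0.43 (SD, n = 3 each), and the difference with age in WT was -0.73. The pseudocount compresses a gene this low. Csn3 minus the mean was 0.74 ± 0.27, -0.79 ± 0.03, 0.47 ± 0.08 and -4.70 ± 0.27, with a 12-month genotype difference of -3.91.

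Relative to the luminal markers, Ltf was 0.96 higher at 12 than at 2 months in WT and 1.63 higher in KO, and its 12-month genotype difference was -0.38. Lcn2 differed by 0.12 with age in WT and 1.77 in KO, and was 0.59 above WT in 12-month KO. Xdh relative to the markers differed by -3.63 with age in WT and 0.57 in KO, and was 3.43 above WT in 12-month KO. At 2 months the genotype differences, KO minus WT, were -1.06 for Ltf, -1.05 for Lcn2, -0.83 for Csn1s1, -0.77 for Xdh and -0.27 for Csn3. These differences are given as a description, with no test. The part of the luminal cell share in the results for Csn1s1, Csn3, Ltf, Lcn2 and Xdh was not tested.

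**Figure D4:**
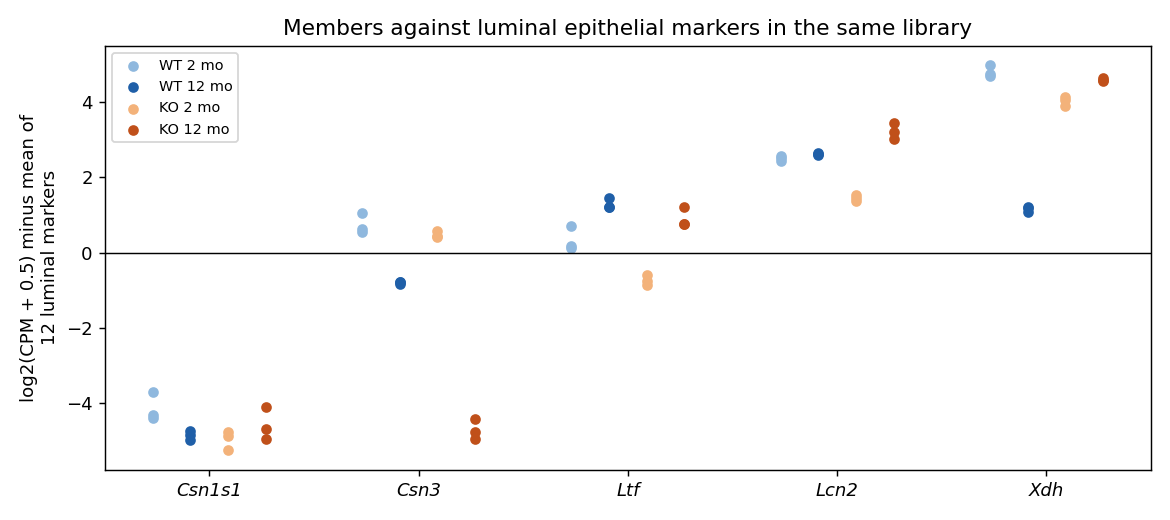
Log2(CPM + 0.5) of each tested gene minus the mean of 12 luminal markers in the same library, 1 point per library and 3 per group. Csn3 in 12-month KO lay near -4.70, apart from its other groups between -0.79 and 0.74, while the Csn1s1 groups lay between -4.96 and -4.12 on average.

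Genes of lactogenic signalling, the hormone pathway upstream of the caseins, were tested for 18 of 19 members. With age in WT 10 rose and 4 fell, where 22.3% of all genes rose and 35.6% fell. With age in KO 13 rose and none fell (all genes 32.9% and 34.2%), and at 12 months 10 were higher and 4 lower in KO (all genes 31.3% and 38.9%). Elf5, the alveolar transcription factor, was at 2.11, 49.0, 1.44 and 7.67 CPM over the 4 groups, with a rise in WT (log2 fold change 4.25), a smaller one in KO (2.07) and a lower level in KO at 12 months (-2.61). Prlr, the prolactin receptor, followed the same order at 6.21, 47.5, 4.40 and 16.3 CPM. Gata3, a luminal factor, rose in WT (log2 fold change 2.15, limma adjusted p = 3.67e-09) and gave 0.02 in KO (limma adjusted p = 0.874). Stat5a, the factor that prolactin activates, was at 17.9, 20.9, 15.1 and 22.6 CPM. It rose with age by 0.21 on the log2 scale in WT (limma adjusted p = 0.0243) and by 0.57 in KO (limma adjusted p = 1.64e-05), was lower in KO at 2 months (-0.24, limma adjusted p = 0.0398), and gave 0.11 between genotypes at 12 months (limma adjusted p = 0.2). Socs3, a feedback inhibitor of cytokine signalling, gave 0.04 with age in WT (limma adjusted p = 0.787) and rose in KO from 33.1 to 134 CPM. Elf5, Prlr and Gata3 were thus among the 4 genes of the list that were lower in KO at 12 months. Among the 10 that were higher were Socs3 (log2 fold change 2.03), Tnfsf11 (2.13), Socs2 (0.603) and Stat3 (0.377).

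Partners in milk fat and lactose secretion were tested for 17 of 19 members. With age in WT 8 rose and 6 fell, against 22.3% and 35.6% of all genes. With age in KO 8 rose and 3 fell, against 32.9% and 34.2%, and at 12 months 6 were higher and 9 lower in KO, against 31.3% and 38.9%. Their median log2 fold change was -0.08 with age in WT, as over all genes. Btn1a1, butyrophilin, the partner of Xdh on the fat globule, was at 0.679, 9.11, 0.395 and 1.41 CPM, and its level was lower in KO at 12 months (log2 fold change -2.33), the opposite of Xdh. B4galt1, the galactosyltransferase that Lalba modifies, fell with age in WT (-0.68) and rose in KO (0.28). Abcg2, a milk transporter, fell in WT from 244 to 100 CPM and gave -0.06 in KO (limma adjusted p = 0.366).

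Other milk and mucosal defence proteins were tested for 16 of 21 members. With age in WT 11 rose and 3 fell, where all genes gave 22.3% and 35.6%. With age in KO 13 rose and 2 fell (32.9% and 34.2% of all genes), and at 12 months 4 were higher and 12 lower in KO (31.3% and 38.9%). The median log2 fold change was 2.37 with age in WT and 1.79 in KO. Wfdc2, a whey acidic protein family member, was at 17.5, 270, 18.5 and 36.3 CPM, and Pigr, the receptor that carries immunoglobulin A into milk, at 0.398, 14.1, 0.175 and 1.87 CPM. Fcgbp, a mucus protein, rose most in WT (log2 fold change 5.55). Saa3, a serum amyloid A gene, gave 0.02 with age in WT (limma adjusted p = 0.776) and rose in KO (2.54). The complement gene C3 gave -0.02 in WT (limma adjusted p = 0.887) and rose in KO (3.29). Ptx3, a pentraxin, rose in WT (2.13) and in KO (5.52) and was higher in KO at 12 months (3.12). Cp, the copper protein ceruloplasmin, rose in both genotypes (2.02 in WT and 1.78 in KO) and was lower in KO at 12 months (-0.63).

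Inducers of Lcn2 known from inflammation were tested for 8 of 9 members. With age in WT 5 rose and 1 fell, beside 22.3% and 35.6% of all genes. With age in KO all 8 rose, beside 32.9%, and at 12 months 5 were higher and 1 lower in KO, beside 31.3% and 38.9%. Nfkbiz, the co-activator needed for Lcn2 induction, was at 46.3, 78.3, 40.3 and 273 CPM and was higher in KO at 12 months (log2 fold change 1.79, limma adjusted p = 8.75e-11). Il6 gave 0.4 with age in WT (limma adjusted p = 0.168) and rose in KO from 6.88 to 32.0 CPM. Tnf was the 1 gene of this list called lower in KO at 12 months (log2 fold change -0.356, limma adjusted p = 0.00771). It was at 4.35, 11.3, 2.92 and 8.7 CPM, and its group means had the same order as those of Lcn2. The part of these inducers in the Lcn2 result was not tested.

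**Figure D5:**
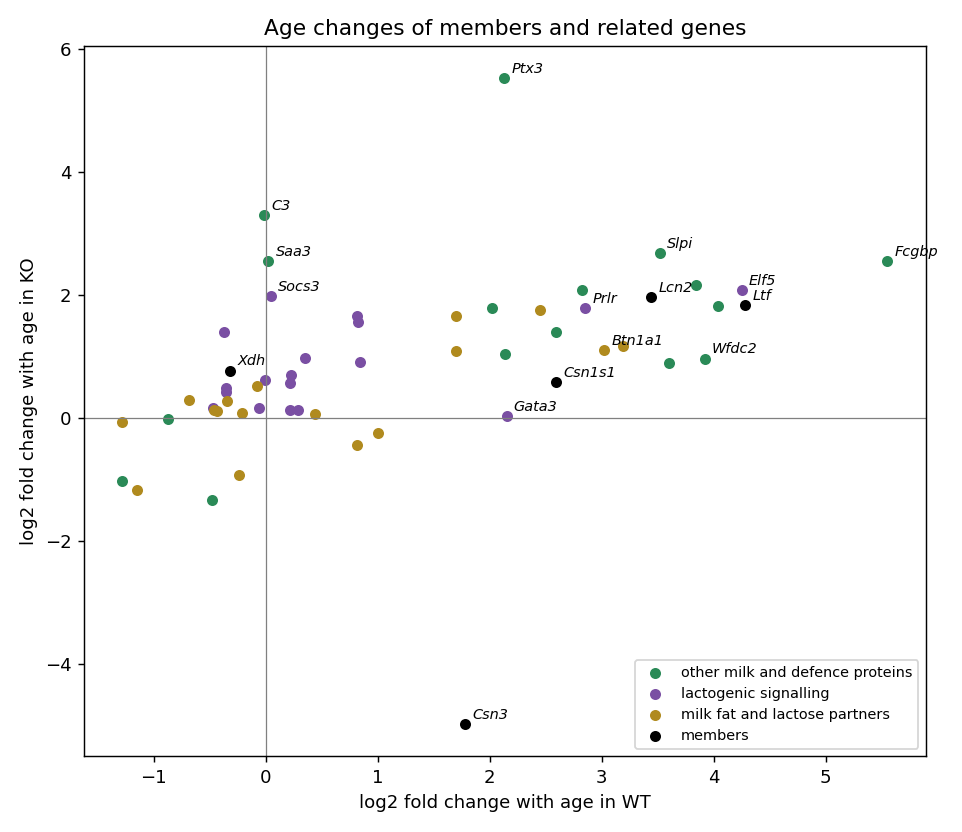
Log2 fold change with age in KO against that in WT for the tested genes of the milk group and of 3 related lists, 1 point per gene. Csn3 lay alone at 1.78 in WT and -4.98 in KO, and C3, Saa3 and Socs3 lay near 0 in WT and at 3.29, 2.54 and 1.98 in KO.

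The genes whose levels were most like each tested gene over the 12 libraries were found by Pearson correlation of log2(CPM + 0.5), as a description with no test, since all 12 libraries share the same 4 groups. For Csn3 they were Mex3a (0.9952), Arl4c (0.9931) and Col4a5 (0.9930), all lowest in 12-month KO, with Mex3a at 14.8, 20.4, 14 and 4.69 CPM over the 4 groups. For Csn1s1 they were Dcdc2a, Gabrp and Rin2, with correlations of 0.9911, 0.9892 and 0.9881. For Ltf they were Nit1, Clic6 and Cpm, at 0.9978, 0.9971 and 0.9960, and for Lcn2 they were Gjb2, Atp1b1 and Oxtr, at 0.9968, 0.9965 and 0.9959. Those of Xdh reached 0.9723 for Rundc3b, 0.9679 for Cma1 and 0.9674 for Pappa2. Among the tested genes themselves, Ltf and Lcn2 correlated at 0.99, Csn1s1 and Csn3 at 0.51, and Csn3 and Xdh at -0.70.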

How the data were processed

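Total RNA of passage 2 mammospheres was isolated with PicoPure and made into TruSeq Stranded libraries, per the labels' protocols. The submitters' processing notes name the build mm10 and the tools TopHat2 2.1.0, Bowtie2 2.2.4, SAMtools 0.1.18 and HTSeq 0.6.1p1. For the annotation and the strand setting, the entry is: not given in the sources used here. Each deposited signal value is a CPM scaled by TMM in edgeR by the authors, per the file headers. Against edgeR runs on each of 15 subsets of the groups, and within 5e-04 on the log2 scale, the factors of 12-month WT matched a run on the 6 libraries of 12 months, those of KO a run on the 6 KO libraries, and those of 2-month WT none. Apart from age in KO, comparisons thus cross separately scaled columns. Whole reads were recovered from the CPM steps (100% of values within 0.1 of a whole read), giving 31845169 to 109079737 reads per library. Intervals and floors cover counting error only, and 3 reads were the floor.

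Values were taken as log2(CPM + 0.5) for 13961 genes whose mean reached 0.5 CPM. limma 3.58.1 under R 4.3.3 fitted 4 group means to the 12 libraries, using its trend option, which left 8 residual degrees of freedom. P-values were adjusted by Benjamini-Hochberg over all genes within each of 5 comparisons (12 against 2 months within each genotype, KO against WT at each age, and the interaction), with a threshold of 0.05. Alternatives were other pseudocounts, filters and scaling, edgeR 4.0.16 and DESeq2 1.42.0 on the recovered reads, a replicate block and leaving out each library. The limma fit was tested on simulated counts for age in WT only, and it called 192 of 196 changed genes in the right direction. Those counts were scaled in 1 run, unlike the deposited columns, and edgeR and DESeq2 were not tested in this way. CPM per kb used the length of the GENCODE principal transcript. Promoters are from RefSeq. The members and gene lists were chosen with earlier results of these data known. All 10 genes were named whatever their result; of other lists, up to 4 genes with the smallest p in the age and 12-month comparisons and set defining genes were eligible to be named, and for likeness the 3 genes with the highest correlation. Igj, Chi3l1 and Emr1 were matched through older symbols. Deviations from the group mean were correlated between libraries with the same replicate number (18 pairs, correlation -0.163 to 0.589, 8 above 0.1). Pairs with different numbers were not computed, so whether the numbers pair the libraries cannot be told.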

Additional observations from a re-analysis of the deposited data

Results flagged for a closer look

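The age effect differed between KO and WT for all 5 tested genes, by the interaction term in limma (log2 scale, KO minus WT). The value was -6.76 for Csn3, -2.45 for Ltf, -2.01 for Csn1s1, -1.48 for Lcn2 and 1.08 for Xdh. For Csn3 and Xdh the age effects had opposite signs in the 2 genotypes, and for the other 3 the rise was smaller in KO. The background stands in the report: 31.4% of genes had a higher and 26.2% a lower age effect in KO. That balance depends on the scaling: 4388 genes were higher and 3663 lower as reported, against 3921 and 4244 with factors over all 12 libraries and 3911 and 4565 in edgeR. With factors over all 12 libraries the 5 values were -6.85, -2.51, -2.05, -1.55 and 1.01 in the order above.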

How the results depend on the processing

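Each of the 25 single-gene results was recomputed under 21 alternatives (20 for the interaction, where a fit of only the compared groups does not apply), giving 520 values: 508 kept their direction and their side of the threshold, 5 passed it newly, 3 no longer passed it and 4 changed sign. The number of the genes called stayed within 5 to 6 for age in WT, 4 to 5 for age in KO, 3 to 4 for genotype at 2 months, and 5 to 6 for genotype at 12 months and for the interaction; leaving out 1 library gave 5 to 5, 4 to 5, 3 to 4, 5 to 5 and 5 to 5. The sign changed only for Csn3 at 2 months, never past the threshold: 0.03013 with factors over all 12 libraries, 0.04626 in edgeR and 0.0343 in DESeq2, against -0.06 as reported, and leaving out 1 library gave -0.09342 to 0.007935, the highest without replicate 1 of 2-month WT. Over the alternatives the log2 fold change of Csn3 with age in KO ran from -5.95 to -4.45, and at 12 months from -7.8 to -6.27; for Csn1s1 with age in KO it ran from 0.34 to 1.27. With the replicate number as a block, the genes called numbered 5, 5, 3, 5 and 5 in the 5 comparisons, as without the block. Over all genes the block raised the calls, at 2 months from 2245 to 2590. Whether the numbers pair the libraries cannot be told. Over all genes, edgeR called 8108, 9805, 1460, 10398 and 8476 in the 5 comparisons, where limma called 8091, 9358, 2245, 9801 and 8051; at 2 months, factors over all 12 libraries gave 1458, and leaving out replicate 1 or 3 of 2-month KO gave 1407 and 1493. Deposited and recomputed scaling factors differed by at most 0.09 on the log2 scale between groups. Depth limits Csn2, Csn1s2a, Lalba, Glycam1 and Wap, which had at most 8 reads each.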

Other observations

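Igj, the immunoglobulin J chain gene that lies 602.3 kb from Csn3 in the same chromosome region, had 306 reads in all and a mean of 1.4 CPM in 12-month KO, against 0.05 CPM for WT at 2 months, 0.137 for WT at 12 months and 0.0243 for KO at 2 months. It was below the filter and was not tested, and it was singled out after its values were seen. Sult1e1, an estrogen sulfotransferase gene at -334.0 kb from Csn3, was highest in 2-month WT, at 0.42 CPM against 0.074 to 0.163 CPM in the other groups, and was likewise not tested.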
